A study of Mus musculus with 24 samples.

Results

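This account follows 9 genes of matrix turnover in the mouse kidney: the matrix metalloproteinase genes Mmp2, Mmp3, Mmp7, Mmp9, Mmp12 and Mmp14, and the genes Timp1, Timp2 and Timp3 for tissue inhibitors of metalloproteinases. They were chosen as a named list, by symbol, from 54532 gene identifiers counted in each of 24 bulk RNA sequencing libraries of kidney, and all 9 were found. The knockout mice lacked Lrp2 in proximal tubule cells, and the wild-type mice were their littermates. Lrp2 encodes megalin, the endocytic receptor with which proximal tubule cells retrieve filtered proteins. All mice ate a Western diet, and the 4 groups of 6 libraries each were knockout at 12 weeks of diet, wild type at 12 weeks, knockout at 2 weeks and wild type at 2 weeks. The labels write the 2 genotypes as PTC LRP2-SM22 -/- and +/+ and do not explain the SM22. The sources used here do not give the Cre driver, strain, age or sex, nor whether each library came from a separate mouse. The p-values therefore speak only of the spread among these libraries. A group on ordinary feed was not analysed here, so every value belongs to mice on the Western diet.

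Matrix metalloproteinases are zinc-dependent enzymes, secreted or held at the cell surface, that are made as inactive precursors and cut collagens, laminins, elastin and many non-matrix proteins once their prodomain is removed. TIMPs bind the active site of the mature enzymes, so the local activity depends on enzyme, activator and inhibitor together, which RNA levels do not measure. In the kidney these genes are studied in tubulointerstitial injury and scarring, where tubule cells, fibroblasts, macrophages and neutrophils can each be a source of them. The comparison between genotypes asks how the RNA of each gene differed in kidneys with megalin-deficient proximal tubules, and the 2 durations ask whether that difference was seen early and late.

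The libraries held 11.3 to 15.2 megacounts in knockout and 11.3 to 14.5 megacounts in wild type at 12 weeks, and 16.3 to 25.2 megacounts in knockout and 15.6 to 34.1 megacounts in wild type at 2 weeks. Levels are given in CPM, the counts of a gene per megacount of its library, with library totals scaled by the TMM method. The targeted gene Lrp2 had 186 to 390 CPM in knockout against 1410 to 2503 CPM in wild-type libraries at 12 weeks, and 192 to 584 CPM against 1588 to 2289 CPM at 2 weeks, so no knockout library reached the wild-type range. Kidney markers were plentiful in every group: the summed level of 10 of them, such as Umod, Slc34a1 and Kap, was 20313 to 30103 CPM in knockout against 33563 to 39012 CPM in wild type at 12 weeks, and 25789 to 39217 CPM and 32005 to 38406 CPM at 2 weeks.

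The promoter sequences of 4 members are shown first because these genes had the largest differences between genotypes or held the AP-1 letters described here. Windows of 300 bases, from 250 before to 50 after an annotated start, were taken from RefSeq (GRCm38.p6) and matched 7 of the 9 members, in 9 windows; Mmp2 and Mmp9 were not among them. Capitals mark the letters searched on both strands: TGANTCA, the core bound by AP-1 (Fos and Jun proteins), AGGAAG, the core called PEA3 and bound by Ets proteins, and CTTTGA, a short form of the TCF/LEF element used by Wnt signalling. On the opposite strand the PEA3 letters read CTTCCT and the TCF/LEF letters TCAAAG, and no marked stretch overlaps another. Each is written 5′ to 3′ on the strand of the gene, which is the plus strand for all 4.
Mmp3, chr9:7445572-7445871: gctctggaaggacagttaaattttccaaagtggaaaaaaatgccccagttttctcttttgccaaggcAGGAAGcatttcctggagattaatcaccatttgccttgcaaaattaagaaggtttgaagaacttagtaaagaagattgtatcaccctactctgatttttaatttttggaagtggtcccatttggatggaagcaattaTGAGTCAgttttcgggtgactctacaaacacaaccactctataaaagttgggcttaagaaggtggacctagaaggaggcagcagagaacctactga
Mmp7, chr9:7691840-7692139: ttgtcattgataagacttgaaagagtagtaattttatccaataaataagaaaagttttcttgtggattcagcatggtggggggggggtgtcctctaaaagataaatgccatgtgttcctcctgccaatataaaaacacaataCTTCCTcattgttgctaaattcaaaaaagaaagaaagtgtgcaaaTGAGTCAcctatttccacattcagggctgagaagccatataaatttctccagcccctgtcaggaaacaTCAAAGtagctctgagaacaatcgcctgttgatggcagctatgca
Mmp12, chr9:7347124-7347423: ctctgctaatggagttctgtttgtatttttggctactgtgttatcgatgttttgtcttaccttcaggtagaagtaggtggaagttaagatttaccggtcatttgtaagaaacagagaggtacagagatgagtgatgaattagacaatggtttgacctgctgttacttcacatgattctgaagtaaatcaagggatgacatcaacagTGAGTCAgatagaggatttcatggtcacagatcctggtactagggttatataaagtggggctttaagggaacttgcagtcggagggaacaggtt
Timp1, chrX:20869916-20870215: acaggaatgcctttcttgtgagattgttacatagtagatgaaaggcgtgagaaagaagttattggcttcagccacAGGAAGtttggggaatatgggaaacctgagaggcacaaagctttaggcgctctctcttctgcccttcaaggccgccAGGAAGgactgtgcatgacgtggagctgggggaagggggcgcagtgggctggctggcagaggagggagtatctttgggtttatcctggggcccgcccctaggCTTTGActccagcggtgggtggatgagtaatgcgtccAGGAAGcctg
The AP-1 letters stood 46 bases before the start of Mmp3, 63 bases before that of Mmp7 and 44 bases before the annotated start within this Mmp12 window, in each case as TGAGTCA. These 3 were the only ones of the 9 windows with the AP-1 letters, against 7.81% of all 32851 promoter windows in the table. The other Mmp12 window, chr9:7344147-7344446, which spans the annotated start of the gene, lacked the AP-1 letters, as did the other Mmp7 window. The window of Mmp7 also held 1 match of the PEA3 letters and 1 of the TCF/LEF letters, and that of Timp1 held 3 and 1. PEA3 letters were in 7 of the 9 windows and in 35.4% of all windows, and TCF/LEF letters were in 3 of the 9 and in 16% of all windows. The 2 windows of Mmp7 overlap, and their TCF/LEF match is the same site, counted in each. These matches describe the letters only, and binding was not measured here.

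Of the 9 genes 8 were higher in knockout kidneys and Timp3 was lower, at both durations, by the edgeR quasi-likelihood test at a Benjamini-Hochberg adjusted p under 0.05. The median log2 fold change over the 9 was 2.79 at 12 weeks and 2.73 at 2 weeks, while the median over all 17286 genes tested was 0 and -0.01, all as a description. Over all tested genes 38.5% passed this test at 12 weeks, 20.7% higher and 17.7% lower, and 31.6% passed at 2 weeks, 18.2% higher and 13.4% lower. The knockout libraries all lay above or all below the wild-type libraries for 8 of the 9 at each duration, as they did for 18.4% of all tested genes at 12 weeks and 16.6% at 2 weeks. Mmp3, Mmp7, Mmp9 and Timp1 passed the filter on low counts through the knockout libraries, since none of these had 10 counts in every wild-type library. The counts and medians over the 9 are therefore no support for a difference. The same limit holds for the single calls of Mmp3, Mmp7, Mmp9 and Timp1. Their levels, folds and p-values below are given as a description. The 5 others (Mmp2, Mmp12, Mmp14, Timp2 and Timp3) had at least 10 counts in all 24 libraries, and their median log2 fold change was 1.36 at 12 weeks and 1.43 at 2 weeks. Bulk RNA cannot tell more cells of a type from more RNA per cell.

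**Figure D1:**
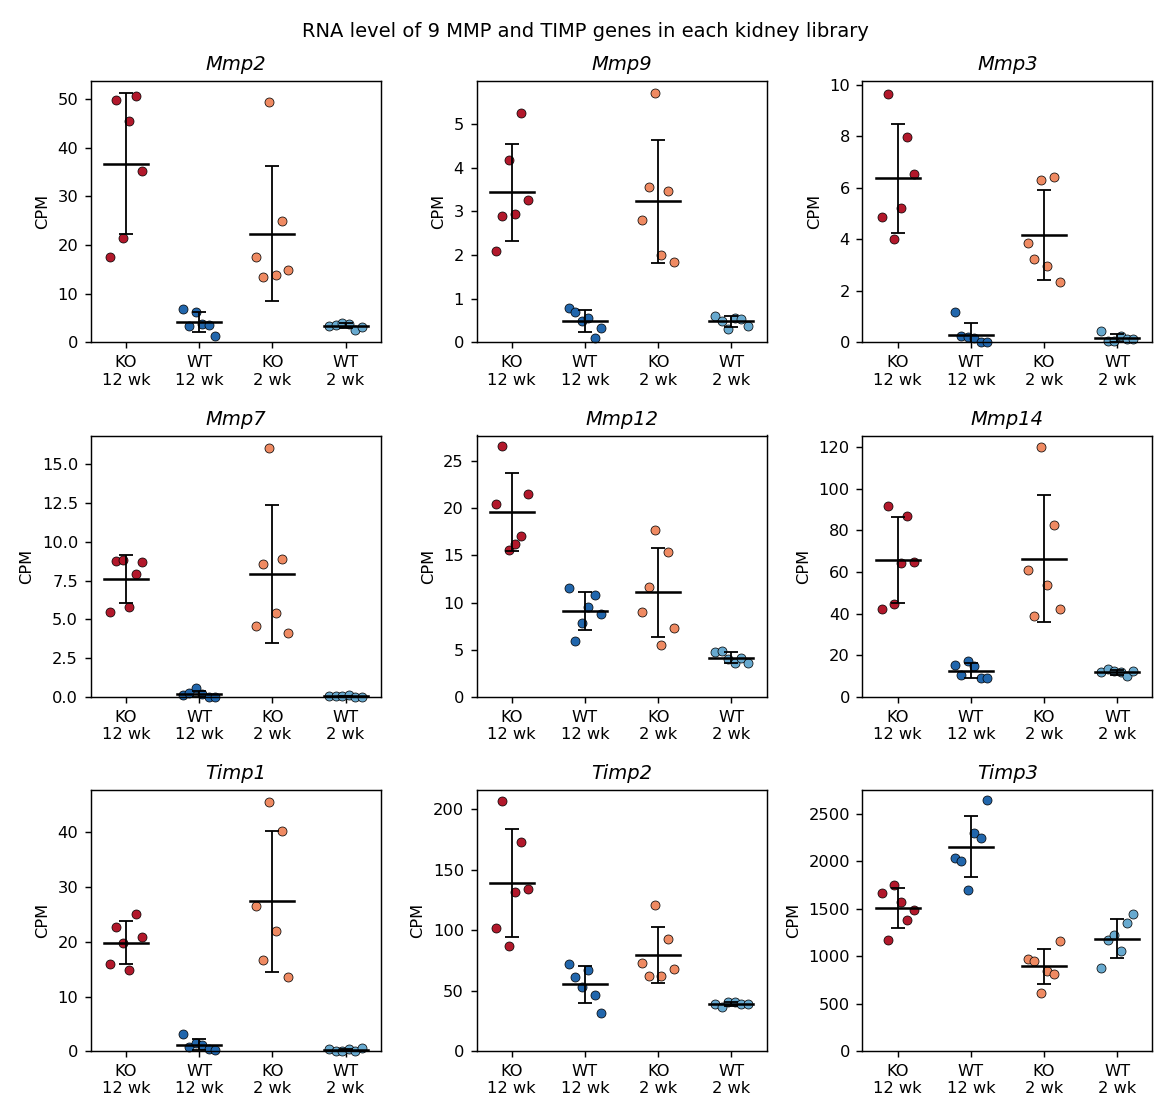
Level of each gene in CPM (vertical axes, linear and starting at 0) in every library of the 4 groups; points are libraries, the horizontal line is the mean and the bars are 1 SD (n = 6 each). Knockout libraries lie above all wild-type libraries of the same duration in 8 panels, and Timp3 shows the opposite order with overlap.

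Mmp7 had the largest fold difference of the 9 at both durations, and Timp1 came next to it at 2 weeks, as Mmp3 did at 12 weeks. Mmp7 (chr9:7692090-7699585, plus strand, mm10) encodes matrilysin, a small secreted metalloproteinase made mainly by epithelial cells and known as a Wnt target. At 12 weeks the lowest, median and highest level of Mmp7 were 5.51, 8.3 and 8.86 CPM in knockout and 0, 0.142 and 0.591 CPM in wild type. At 2 weeks they were 4.15, 6.96 and 16.1 CPM in knockout and 0, 0.0504 and 0.103 CPM in wild type. Wild-type kidneys thus held only traces, 12 counts over 6 libraries at 12 weeks and 6 counts over 6 libraries at 2 weeks, and every knockout library was far above them. The log2 fold change of Mmp7 was 5.29 ± 0.43 (SE; edgeR adjusted p = 1.08e-06) at 12 weeks and 7.25 ± 0.52 (edgeR adjusted p = 6.21e-08) at 2 weeks. With so few wild-type counts the size of these folds is loose, and without wild-type replicate 3 the 12-week value was 6.0. Because Mmp7 passed the filter on low counts through the knockout libraries, its p-values are a description only. Mmp7 shares 123 bases of exon, 11.5% of its exon length, with the antisense gene AV064505 on the opposite strand. Because the sources used here do not say whether strand was used in counting, reads of the 2 cannot be told apart by strand, but AV064505 itself had 1 count over all 24 libraries.

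Timp1 (chrX:20870166-20874735, plus strand) encodes the inducible secreted inhibitor, long used as an RNA marker of scarring kidneys. Its lowest, median and highest level at 12 weeks were 14.8, 20.4 and 25.0 CPM in knockout and 0.335, 0.958 and 3.22 CPM in wild type. The 2-week values were 13.6, 24.2 and 45.5 CPM in knockout and 0.0520, 0.248 and 0.559 CPM in wild type. The lowest knockout library was well above the highest wild-type library at each duration. The log2 fold change was 4.04 ± 0.38 (SE; edgeR adjusted p = 9.71e-06) at 12 weeks and 6.54 ± 0.49 (edgeR adjusted p = 1.3e-06) at 2 weeks. Since Timp1 passed the filter on low counts through the knockout libraries, these p-values and the separation of the groups are a description only. Timp1 lies wholly inside Syn1, a gene for a synaptic vesicle protein on the opposite strand, with no exon base shared. Syn1 had 138 counts in all 24 libraries together and at most 24 in one, against 5395 counts for Timp1.

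The gelatinase genes Mmp2 and Mmp9, whose enzymes cut denatured collagens and type IV collagen, both rose. Mmp2 (chr8:92827291-92853420, plus strand), best known from fibroblasts and other stromal cells, had 17.5, 40.4 and 50.6 CPM (lowest, median, highest) in knockout and 1.34, 3.69 and 6.93 CPM in wild type at 12 weeks. At 2 weeks Mmp2 had 13.4, 16.2 and 49.4 CPM in knockout and 2.62, 3.51 and 4.0 CPM in wild type. The groups did not overlap, and at 2 weeks a single knockout library, replicate 3, stood far above its fellows. The log2 fold change of Mmp2 was 3.16 ± 0.39 (SE; edgeR adjusted p = 0.000111) at 12 weeks and 2.73 ± 0.35 (edgeR adjusted p = 0.000104) at 2 weeks, and it was 2.32 at 2 weeks without that library. Mmp9 (chr2:164940780-164955850, plus strand), which is stored in neutrophil granules and also made by macrophages and tubule cells, stayed low in every group. Its levels were 2.09, 3.10 and 5.25 CPM in knockout and 0.102, 0.526 and 0.781 CPM in wild type at 12 weeks, and 1.85, 3.14 and 5.70 CPM in knockout and 0.312, 0.512 and 0.611 CPM in wild type at 2 weeks. The lowest knockout library exceeded the highest wild-type library by more than the whole wild-type range. Mmp9 had a log2 fold change of 2.79 ± 0.34 (SE; edgeR adjusted p = 2.78e-05) at 12 weeks and 2.74 ± 0.30 (edgeR adjusted p = 1.65e-06) at 2 weeks. Unlike Mmp2, Mmp9 passed the filter on low counts through the knockout libraries, so its p-values are a description only.

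Mmp14 (chr14:54431612-54445364, plus strand) encodes a membrane-anchored collagenase that also activates the precursor of Mmp2, with Timp2 as the adaptor. It had 42.4, 64.5 and 91.6 CPM (lowest, median, highest) in knockout and 8.93, 12.7 and 17.3 CPM in wild type at 12 weeks. At 2 weeks its levels were 39.0, 57.4 and 120.0 CPM in knockout and 9.93, 12.1 and 13.6 CPM in wild type. The groups lay apart, and the knockout libraries spread over a wider range than the wild-type libraries, as in CPM they did for all 8 raised genes. As a share of the mean, the SD was larger in wild type for Mmp2, Mmp3, Mmp7, Mmp9, Mmp12 and Timp1 at 12 weeks. At 2 weeks this share was larger in wild type for Mmp3, Mmp7 and Timp1. Mmp14 had a log2 fold change of 2.41 ± 0.24 (SE; edgeR adjusted p = 2.09e-05) at 12 weeks and 2.504 ± 0.28 (edgeR adjusted p = 3.5e-05) at 2 weeks.

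Mmp3 and Mmp12 lie in the same metalloproteinase gene cluster of chromosome 9 as Mmp7. Mmp3 (chr9:7445822-7455975, plus strand) encodes stromelysin, which cuts proteoglycans and laminin and can activate other precursors. Its levels at 12 weeks were 4.02, 5.87 and 9.66 CPM in knockout and 0, 0.192 and 1.17 CPM in wild type. At 2 weeks Mmp3 had 2.35, 3.55 and 6.42 CPM in knockout and 0.0487, 0.129 and 0.444 CPM in wild type. Knockout libraries were all above wild type, where a single library, replicate 1, was the highest at each duration. Mmp3 had a log2 fold change of 4.40 ± 0.55 (SE; edgeR adjusted p = 5.65e-05) at 12 weeks and 4.37 ± 0.41 (edgeR adjusted p = 3.94e-07) at 2 weeks. Without wild-type replicate 1 of the duration concerned it was 5.54 at 12 weeks and 5.07 at 2 weeks. As Mmp3 passed the filter on low counts through the knockout libraries, its p-values are a description only.

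Mmp12 (chr9:7344381-7369499, plus strand) encodes macrophage elastase and had the smallest difference of the metalloproteinases. It had 15.6, 18.8 and 26.6 CPM in knockout and 5.93, 9.16 and 11.5 CPM in wild type at 12 weeks, and 5.47, 10.4 and 17.7 CPM in knockout and 3.60, 4.08 and 4.92 CPM in wild type at 2 weeks. The groups of each duration came close without overlapping, and the range of knockout kidneys at 2 weeks overlapped that of wild-type kidneys at 12 weeks. For Mmp12 the log2 fold change was 1.14 ± 0.17 (SE; edgeR adjusted p = 0.000118) at 12 weeks and 1.43 ± 0.24 (edgeR adjusted p = 0.000293) at 2 weeks. The gene shares 157 exon bases with Mmp1b on the opposite strand, and Mmp1b had 0 counts in all 24 libraries, which at this depth allows up to 3 counts over them.

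Timp2 (chr11:118301069-118355740, minus strand) encodes a widely made inhibitor that also helps to activate the precursor of Mmp2. Its levels were 87.1, 133 and 207 CPM (lowest, median, highest) in knockout and 31.3, 57.4 and 72.2 CPM in wild type at 12 weeks. At 2 weeks they were 62.4, 70.4 and 121.0 CPM in knockout and 36.7, 39.0 and 40.6 CPM in wild type, where the 6 libraries were almost level. No knockout library fell into the wild-type range. Timp2 had a log2 fold change of 1.36 ± 0.24 (SE; edgeR adjusted p = 0.00104) at 12 weeks and 1.06 ± 0.15 (edgeR adjusted p = 6.57e-05) at 2 weeks. Cep295nl, on the same strand within the Timp2 locus, shares no exon base with it and had 60 counts over all libraries.

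Timp3 (chr10:86300372-86349506, plus strand) encodes the inhibitor that stays bound to the matrix and also blocks ADAM17, the enzyme that sheds tumour necrosis factor, and it was the sole member lower in knockout. It had 1176, 1528 and 1755 CPM (lowest, median, highest) in knockout and 1699, 2142 and 2650 CPM in wild type at 12 weeks. At 2 weeks its levels were 613, 903 and 1164 CPM in knockout and 878, 1198 and 1449 CPM in wild type. The groups overlapped: 5 of 6 knockout libraries at 12 weeks and 3 of 6 at 2 weeks lay below all wild-type libraries of their duration. The log2 fold change was -0.49 ± 0.12 (SE; edgeR adjusted p = 0.00542) at 12 weeks and -0.38 ± 0.14 (edgeR adjusted p = 0.0384) at 2 weeks. The 2-week call was lost when any one of 7 libraries was left out, knockout replicates 3, 4 or 5 or wild-type replicates 2, 3, 5 or 6, with values of -0.29 to -0.39 and edgeR adjusted p between 0.0588 and 0.0975, and also with no filter on low counts (-0.39, edgeR adjusted p = 0.0632). Timp3 lies inside Syn3, on the opposite strand, and 1733 of its exon bases, 21.3%, are shared with it. Syn3 had 3020 counts over all libraries against 521448 for Timp3, and its own log2 fold change was -0.40 (edgeR adjusted p = 0.0811) at 12 weeks and -0.35 (edgeR adjusted p = 0.103) at 2 weeks.

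**Figure D2:**
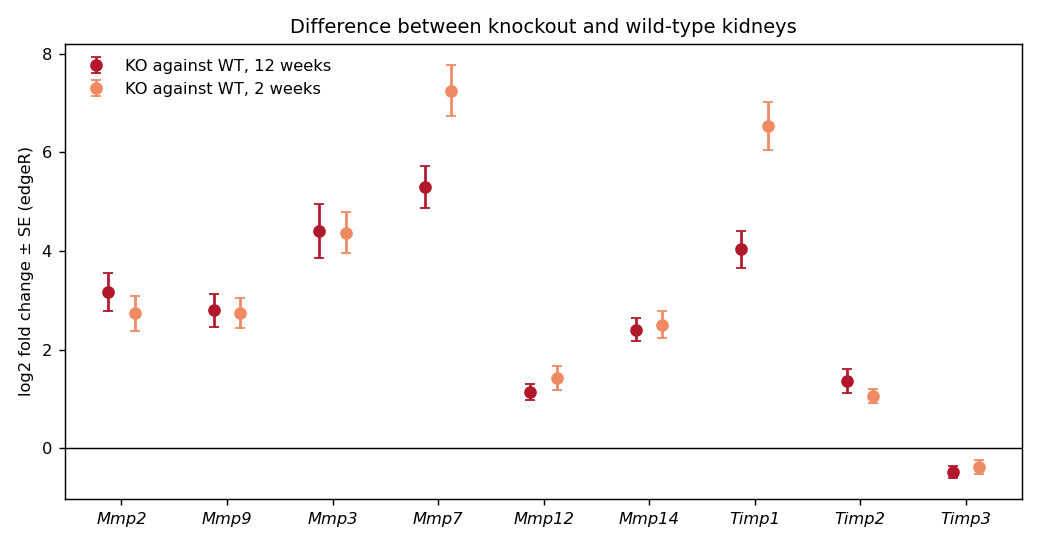
Log2 fold change of knockout against wild type with its SE (edgeR, 6 libraries against 6) for the 9 genes at 12 and 2 weeks. Mmp7 at 7.25 and Timp1 at 6.54, both at 2 weeks, are the highest points, and Timp3 is the sole gene below 0 at both durations.

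Per kilobase of exon, which allows levels of different genes to be compared, Timp3 was the most abundant member in every group. Its level was 185 ± 25.6 CPM per kilobase in knockout and 265 ± 39.5 in wild type at 12 weeks, and 109.9 ± 22.8 in knockout and 146 ± 25.1 in wild type at 2 weeks (SD, n = 6 each). No other member came within the range of Timp3 in any of these groups. In knockout at 12 weeks the order went on with Timp2 (35.7), Timp1 (22.4), Mmp14 (11.04), Mmp2 (10.9), Mmp7 (7.11), Mmp3 (3.54), Mmp12 (2.71) and Mmp9 (0.971), all in CPM per kilobase. Neighbours in this order had overlapping ranges except Timp3 and Timp2, Timp1 and Mmp14, and Mmp12 and Mmp9. In wild type at 12 weeks Timp2 (14.2) followed Timp3, and Mmp14, Timp1, Mmp12 and Mmp2 (2.13, 1.399, 1.25 and 1.25 CPM per kilobase) could not be ordered by their ranges. Mmp7, Mmp3 and Mmp9 were lowest there, at 0.178, 0.168 and 0.140 CPM per kilobase, again with overlapping ranges. In knockout at 2 weeks Timp1 (30.9) followed Timp3, ahead of Timp2 (20.5 CPM per kilobase), and the ranges of Timp1 and Timp2 overlapped. In wild type at 2 weeks Timp1, at 0.314 CPM per kilobase, ranked sixth and Mmp7, at 0.0405, last. The exon length joins all annotated isoforms, which makes it long for Mmp12 and its level per kilobase low.

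The summed RNA of the 3 TIMP genes overlapped between genotypes, while its make-up did not. The sum was 243 ± 12.2 CPM per kilobase in knockout and 280 ± 37.1 in wild type at 12 weeks, and 161 ± 11.6 in knockout and 156 ± 25.0 in wild type at 2 weeks (SD, n = 6 each). Timp1 made up 9.25% ± 2.04 of that sum in knockout and 0.526% ± 0.462 in wild type at 12 weeks. At 2 weeks its share was 19.2% ± 8.95 in knockout and 0.211% ± 0.169 in wild type, and the lowest knockout library (8.69%) was above the highest wild-type library (0.449%). Timp3 made up 75.8% ± 7.19 in knockout and 94.3% ± 2.00 in wild type at 12 weeks, and 68.1% ± 12.5 in knockout and 93.2% ± 1.27 in wild type at 2 weeks. The 6 metalloproteinases summed to 36.2 ± 9.59 CPM per kilobase in knockout and 5.11 ± 1.53 in wild type at 12 weeks, and to 30.0 ± 14.8 in knockout and 3.88 ± 0.368 in wild type at 2 weeks, without overlap. Mmp7 was 20.4% ± 5.50 of the metalloproteinase sum in knockout against 3.13% ± 3.40 in wild type at 12 weeks, and 24.5% ± 5.79 against 0.994% ± 0.905 at 2 weeks. The share of Mmp12 was lower in knockout, 7.82% ± 2.31 against 26.1% ± 8.73 at 12 weeks and 5.25% ± 1.22 against 14.9% ± 1.96 at 2 weeks. These sums and shares are descriptions and were not tested.

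**Figure D3:**
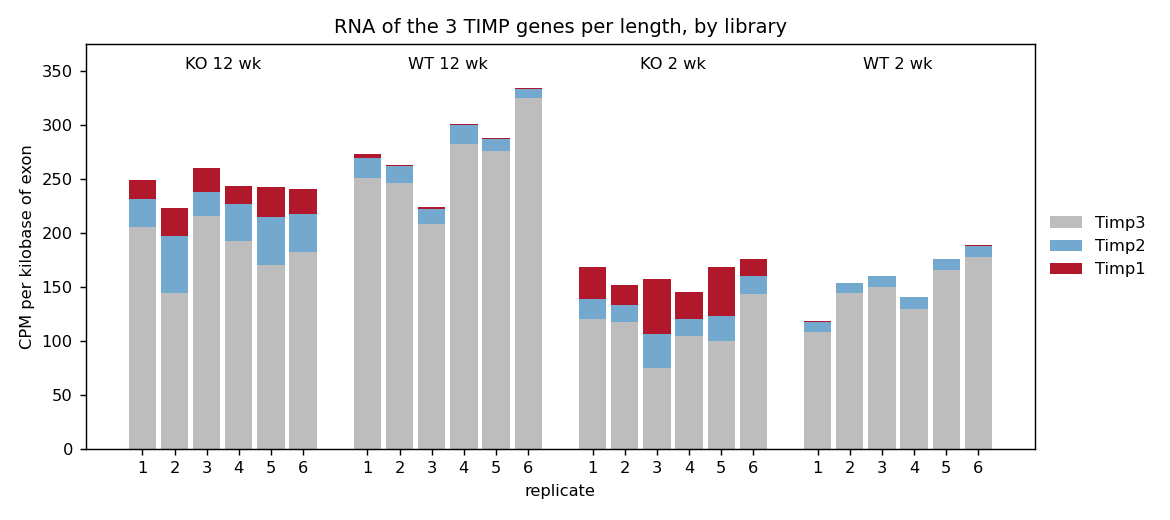
Stacked level of Timp3, Timp2 and Timp1 in CPM per kilobase of exon (vertical axis, from 0) for each of the 24 libraries, by group. The height of the stacks overlaps between genotypes, while the Timp1 layer takes 6.87% to 32.5% of a stack in knockout and at most 1.33% in wild type.

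The difference between genotypes was itself compared between durations with an interaction term. By edgeR 0 of the 9 members passed, where 0.174% of all tested genes did (0.116% higher and 0.0579% lower), and 2 had an unadjusted p under 0.05, Timp1 and Mmp7. DESeq2 called 1, Timp1. The log2 fold change of Timp1 was lower at 12 than at 2 weeks, with an interaction of -2.49 ± 0.68 (SE; edgeR adjusted p = 0.151) and -2.56 by DESeq2 (adjusted p = 0.0268), and the adjusted p ranged between 0.0268 and 0.269 over all alternatives. For Mmp7 the interaction was -1.90 ± 0.90 (SE; edgeR adjusted p = 0.464), and for the other 7 members the edgeR adjusted p was 0.751 or more. The Timp1 interaction is the difference of its changes between durations, -0.47 in knockout and 2.02 in wild type on the log2 scale. The wild-type mean was 1.24 ± 1.07 CPM at 12 weeks and 0.279 ± 0.213 CPM at 2 weeks (SD, n = 6 each).

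Within a genotype, Timp3 and Mmp12 were higher at 12 than at 2 weeks in both knockout and wild type. Of the 9 members 3 passed in knockout, all higher at 12 weeks, where 33.8% of all tested genes passed (17.7% higher, 16.1% lower), and 3 passed in wild type, also higher at 12 weeks, where 30.4% did (15.8% higher, 14.7% lower). Timp3 had a log2 fold change for 12 against 2 weeks of 0.75 ± 0.14 (SE; edgeR adjusted p = 0.000104) in knockout and 0.86 ± 0.14 (edgeR adjusted p = 1.8e-05) in wild type, and the 2 durations did not overlap in either. Mmp12 changed by 0.82 ± 0.21 (edgeR adjusted p = 0.00356) in knockout and 1.11 ± 0.23 (edgeR adjusted p = 0.000503) in wild type. Timp2 passed in knockout at 0.80 ± 0.20 (edgeR adjusted p = 0.00414) and not in wild type at 0.50 (edgeR adjusted p = 0.0748), and the difference between these did not pass (0.30, edgeR adjusted p = 0.751). Timp1 passed in wild type at 2.02 ± 0.61 (edgeR adjusted p = 0.0151) and not in knockout at -0.47 (edgeR adjusted p = 0.253), and without wild-type replicate 1 of 12 weeks the wild-type value was 1.46 (edgeR adjusted p = 0.0882). Mmp2 in knockout was at 0.71 (edgeR adjusted p = 0.101), and at 1.11 (edgeR adjusted p = 0.00449) without knockout replicate 3 of 2 weeks. Libraries of the 2 durations also differed in depth and in the predicted gene Gm42418, which was counted only at 12 weeks. Tagln, a gene of the fibroblast marker list below, was also far higher at 12 than at 2 weeks. Its log2 fold change was 5.84 in wild type and 6.31 in knockout (edgeR adjusted p = 9.61e-14 and 6e-15). Duration therefore cannot be told apart from a difference between sets of libraries.

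Knockout libraries differed among themselves, and mostly in the same direction across members. At 2 weeks knockout replicate 3 had the highest level of 7 of the 9 members, all but Mmp3 and Timp3, and the lowest level of Timp3. Knockout replicate 6 of that group was the opposite, lowest in Mmp3, Mmp7, Mmp9 and Timp1 and highest in Timp3. At 12 weeks knockout replicate 2 was highest in Mmp3, Mmp12, Mmp14 and Timp2 and lowest in Timp3, and replicate 5 was highest in Mmp2, Mmp9 and Timp1. In wild type at 12 weeks replicate 1 was highest in 6 members. Lrp2 and marker genes of other cells went with this order in part. Knockout replicate 3 at 2 weeks and replicate 2 at 12 weeks had the lowest Lrp2 of their groups (192 and 186 CPM). They also had the highest summed macrophage markers (1084 and 1371 CPM) and fibroblast markers (1447 and 1661 CPM). At the other end, replicate 6 at 2 weeks had the lowest macrophage sum (433 CPM). Replicate 2 of that group, however, had the highest Lrp2 (584 CPM) and the lowest fibroblast sum (542 CPM). The summed injured-tubule markers also followed the order of the members in part. Replicate 6 at 2 weeks had the lowest sum of its group (5193 CPM, with the next at 9214 CPM), and replicate 3 ranked behind 2 other libraries there. At 12 weeks replicate 2 had the lowest sum of its group (2566 CPM). Their part in the spread of the members was not tested. Without knockout replicate 3 the log2 fold changes of all members at 2 weeks kept their direction, and only the call of Timp3 was lost.

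**Figure D4:**
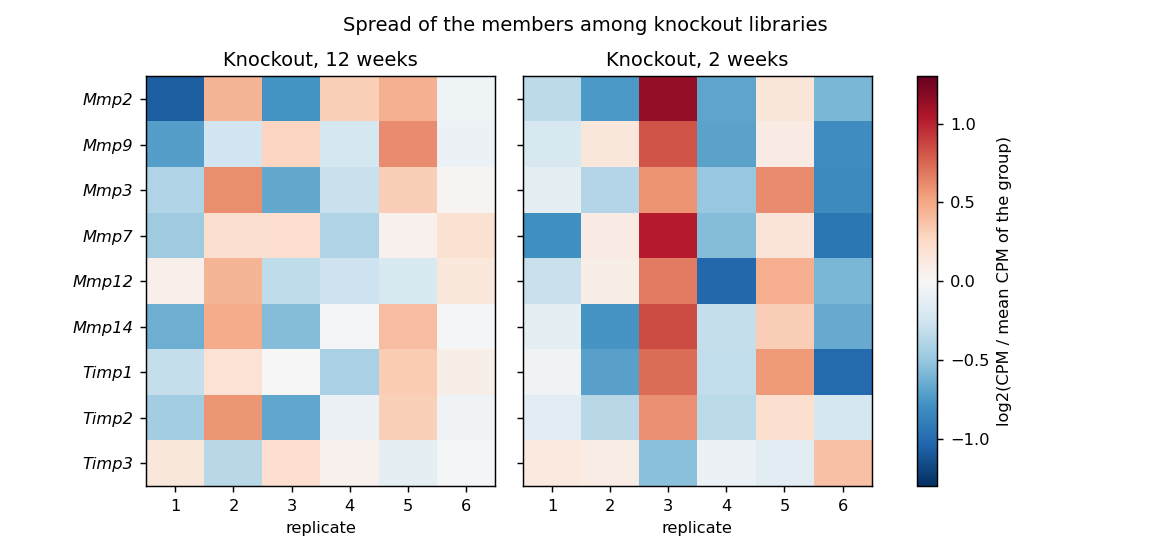
Level of each gene in each knockout library relative to the mean of its group, as log2 of the ratio (colour scale; red above and blue below the mean), by replicate at 12 and 2 weeks. Replicate 3 at 2 weeks is above the mean in 8 genes and below it in Timp3, and replicate 2 at 12 weeks shows a like column save for Mmp9.

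Marker genes of cells that can make these enzymes also differed between genotypes, beside the members. Among all tested genes 20.7% were higher and 17.7% lower at 12 weeks, and 18.2% and 13.4% at 2 weeks. All 12 macrophage markers were higher in knockout at both durations, with a summed level of 644 to 1371 CPM in knockout against 144 to 372 CPM in wild type at 12 weeks, and 433 to 1084 CPM in knockout against 137 to 190 CPM in wild type at 2 weeks. Their median log2 fold change was 2.17 at 12 weeks and 2.24 at 2 weeks. Of 12 fibroblast markers 11 were higher at 12 weeks and 9 at 2 weeks, none was lower, and the median was 2.06 and 1.20. Their sum was 656 to 1661 CPM in knockout against 162 to 499 CPM in wild type at 12 weeks. At 2 weeks it was 542 to 1447 CPM and 157 to 230 CPM. The list includes Tagln, so its sums cannot be compared between durations. Dcn, Col1a1, Col1a2, Col3a1 and Postn of this list are also among the interstitial matrix genes below, so the results of the 2 lists are not independent. All 10 injured-tubule markers, such as Lcn2, Spp1 and Vcam1, were higher at both durations, with a median of 2.78 and 3.5 and a sum of 2566 to 5534 CPM in knockout against 478 to 618 CPM in wild type at 12 weeks, and 5193 to 10947 CPM and 574 to 722 CPM at 2 weeks. Of 10 neutrophil markers 4 could be tested, S100a8, S100a9, Csf3r and Cxcr2, and all 4 were higher at both durations, with a median of 1.70 and 1.71. Being low in wild type, some of these 4 may have passed the filter on low counts through the knockout libraries. Their count and median are therefore no support for a difference. The neutrophil sum was low, 6.69 to 16.2 CPM in knockout against 1.83 to 6.44 CPM in wild type at 12 weeks, and 11.4 to 25.5 CPM and 3.64 to 9.44 CPM at 2 weeks, and defining markers were at 0 in whole groups: Ly6g and Elane in knockout and Ly6g in wild type at 12 weeks, Mpo in knockout and Elane in wild type at 2 weeks. Endothelial markers were mostly uncalled or lower, with 1 higher and 4 lower of 10 at 12 weeks and 0 higher and 3 lower at 2 weeks, and a median of -0.19 and -0.03. Of the 10 kidney markers 1 was higher and 4 lower at 12 weeks and 0 higher and 5 lower at 2 weeks, with a median of -0.32 and -0.25. Which of these cells carried the RNA of each member was not tested.

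The genes that share the extracellular matrix with the members were taken from lists by known role. Their counts stand beside the shares of all tested genes, 20.7% higher and 17.7% lower at 12 weeks, and 18.2% and 13.4% at 2 weeks. Of a list of 18, the further metalloproteinase genes and Timp4, 8 were tested, of which 5 were higher and 1 lower at 12 weeks and 4 were higher and 0 lower at 2 weeks, with a median log2 fold change of 1.01 and 0.41. Mmp19 had 3.52 ± 1.23 CPM in knockout against 0.366 ± 0.309 CPM in wild type at 12 weeks (SD, n = 6 each; log2 fold change 3.28, edgeR adjusted p = 7.31e-05), and 1.48 ± 0.636 CPM in knockout against 0.288 ± 0.0970 CPM in wild type at 2 weeks (2.40, edgeR adjusted p = 2.77e-05). Mmp25, a membrane-anchored enzyme of leukocytes, rose by a log2 fold change of 2.49 at 12 weeks and 2.13 at 2 weeks (edgeR adjusted p = 0.00232 and 0.000151), and Mmp11 and Mmp23 also rose at both. Mmp19, and other genes of these lists as low in wild type, may have passed the filter on low counts through the knockout libraries. Their calls carry that limit, and list counts and medians that hold them are then no support for a difference. Mmp13, an interstitial collagenase, was the sole one to fall, at 12 weeks, with a log2 fold change of -0.85 (edgeR adjusted p = 0.0221). Of 24 tested ADAM and ADAMTS genes, the related shedding and proteoglycan-cutting enzymes, 13 were higher and 2 lower at 12 weeks and 16 were higher and 2 lower at 2 weeks, with a median log2 fold change of 0.92 and 0.70. Adamts4, an aggrecanase, rose by 1.77 and 2.42 and Adam8, an enzyme of leukocytes, by 2.59 and 1.95 on the log2 scale at 12 and 2 weeks (edgeR adjusted p at most 8.62e-05).

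Genes for proteases and receptors that activate metalloproteinase precursors did not rise as a group. Of 14 tested, 3 were higher and 5 lower at 12 weeks, where 20.7% of all tested genes were higher and 17.7% lower. At 2 weeks 3 were higher and 6 lower, where 18.2% of all tested genes were higher and 13.4% lower. The median log2 fold change of the list was -0.27 at 12 weeks and -0.17 at 2 weeks. Plat and Plaur, the tissue plasminogen activator and the urokinase receptor, rose at both durations: Plat by 0.78 and 0.67 and Plaur by 0.87 and 1.47 on the log2 scale (edgeR adjusted p at most 0.00123). Hpn at 12 weeks and Pcsk6 and Mep1b at 2 weeks, all genes for proteases, fell by 0.50, 1.00 and 0.52 on the log2 scale (edgeR adjusted p at most 0.00128). Inhibitors and clearance receptors outside the TIMP family were listed together with the procollagen C-proteinase enhancer genes Pcolce and Pcolce2. Of 16 tested genes of that list, 9 were higher and 3 lower at 12 weeks and 11 were higher and 0 lower at 2 weeks. Their median was 0.74 and 0.50. Serpine2, which encodes a secreted serine protease inhibitor, rose by 2.16 at 12 weeks and 2.11 at 2 weeks on the log2 scale (edgeR adjusted p = 8.07e-06 and 3.64e-05).

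Among substrates of the enzymes, all 17 genes for interstitial matrix proteins were higher in knockout at 12 weeks and 16 at 2 weeks. None was lower, and the median log2 fold change was 1.70 and 1.51. Over all tested genes 20.7% were higher and 17.7% lower at 12 weeks, and 18.2% and 13.4% at 2 weeks. Col3a1, a fibrillar collagen of the interstitium, had 343 ± 118 CPM in knockout against 44.1 ± 22.2 CPM in wild type at 12 weeks, and 255 ± 111 CPM in knockout against 24.6 ± 6.15 CPM in wild type at 2 weeks (SD, n = 6 each). Fn1, fibronectin, had a log2 fold change of 2.45 at 12 weeks and 2.91 at 2 weeks (edgeR adjusted p = 0.000448 and 1.58e-07). Of 20 basement membrane genes 11 were higher and 3 lower at 12 weeks and 9 were higher and 3 lower at 2 weeks, with a median of 0.44 and 0.31. Col4a1, a widespread collagen chain of basement membranes, rose by 0.70 at 12 weeks and 0.85 at 2 weeks on the log2 scale (edgeR adjusted p = 0.000386 and 2.02e-05), while Col4a3, a collagen of the glomerular basement membrane, fell by 0.48 at 12 weeks (edgeR adjusted p = 0.000244). Of 20 tested cytokines, signalling genes and transcription factors known to induce these enzymes, 18 were higher at 12 weeks and 17 at 2 weeks and none was lower, with a median of 1.17 and 1.18. The AP-1 genes among them, whose letters appear in 3 of the promoters above, varied: Fos rose by 1.34 and 1.64 and Junb by 1.07 and 1.47 on the log2 scale at 12 and 2 weeks (edgeR adjusted p at most 0.0107). Jun was at 0.44 at 12 weeks (edgeR adjusted p = 0.0683) and rose by 0.67 at 2 weeks (edgeR adjusted p = 0.000125). Fosl1 was higher in knockout by 2.30 at 12 weeks (edgeR adjusted p = 0.0278) and was at 0.50 at 2 weeks (edgeR adjusted p = 0.108). Its level was lower at 12 than at 2 weeks in both genotypes. That log2 fold change was -3.89 in wild type (edgeR adjusted p = 2.12e-06) and -2.05 in knockout (edgeR adjusted p = 0.000103). In the interaction 0 genes of these lists passed by edgeR, with 0.174% of all tested genes passing.

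**Figure D5:**
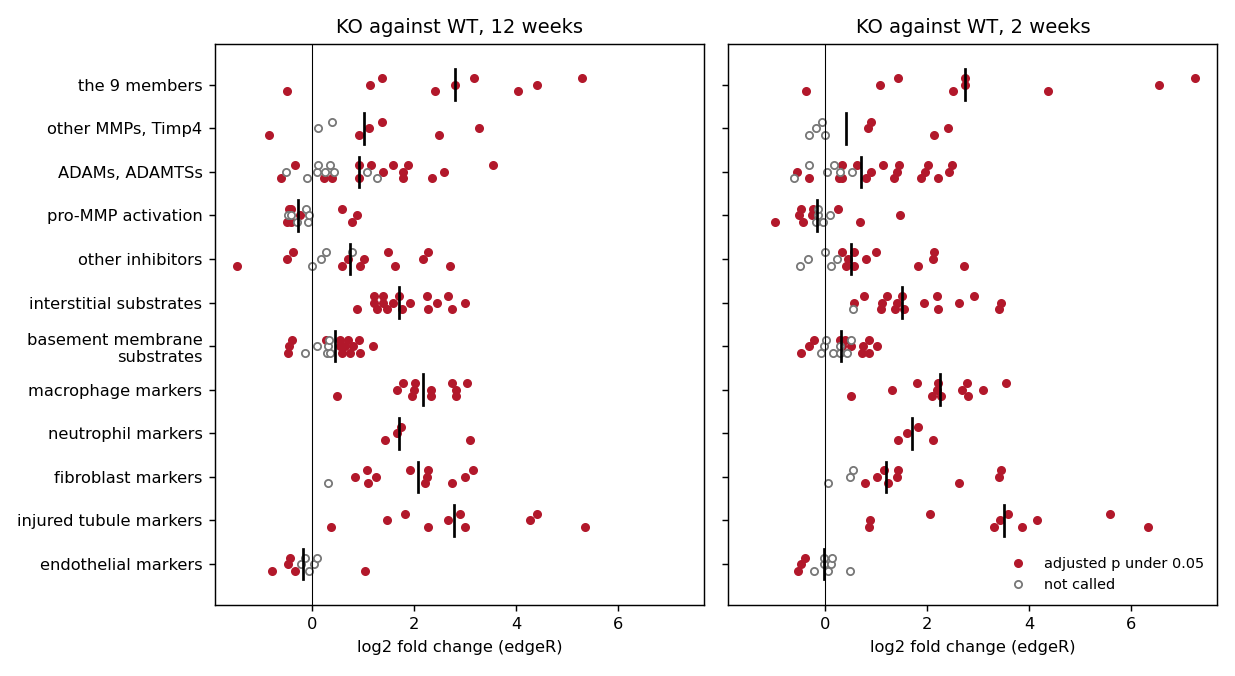
Log2 fold change (edgeR, knockout against wild type) of every tested gene of the members and of 11 lists, at 12 and 2 weeks; filled points passed at an adjusted p under 0.05, open points did not, and the vertical bar is the median of the list. Interstitial substrates, macrophage markers and injured-tubule markers lie to the right of 0 with 8 of the 9 members, while activation and endothelial genes straddle it. Dcn, Col1a1, Col1a2, Col3a1 and Postn appear in both the fibroblast and the interstitial rows.

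The genes whose pattern over the 24 libraries was most like that of each member were found by the Pearson correlation of log2 CPM, among tested genes with a mean of at least 1 CPM. All values share the libraries, their depth and the genotype difference, so the value after centring each group on its mean is given beside each. Mmp7 was most like Inhbb (0.974, and 0.684 after centring), Lcn2 (0.972 and 0.63) and Vcam1 (0.971 and 0.529). Timp1 was most like Vcam1 (0.981 and 0.677), Aldh1a2 (0.976 and 0.645) and C3 (0.974 and 0.78). For these 2 members the value after centring was at most 0.78. Mmp3 was most like Ltbp2 (0.989 and 0.931), Lyz2 (0.978 and 0.854) and Mrc1 (0.977 and 0.848), and Mmp2 was most like Serpine2 (0.975 and 0.837), Csf2rb (0.973 and 0.804) and Col1a2 (0.973 and 0.895). Mmp14 was most like Tmem98 (0.985 and 0.858), Plac8 (0.984 and 0.848) and Cd74 (0.979 and 0.793), and Timp2 was most like Serping1 (0.981 and 0.943), Atp8b2 (0.979 and 0.937) and Csrp1 (0.978 and 0.896). For these 4 members the values after centring were at least 0.793. Mmp9 was most like Clca3a2 (0.961 and 0.8), Mmp3 (0.959 and 0.695) and Cd44 (0.959 and 0.69), and Mmp12, with the lowest values, was most like Lat2 (0.933 and 0.621), with Clec7a (0.928 and 0.773) also among the 3. Timp3 was most like Arsb (0.971 and 0.909), Fam151a (0.959 and 0.847) and Pdha1 (0.955 and 0.819).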

How the data were processed

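Per the labels' protocols, kidney RNA was extracted with a Maxwell RSC simplyRNA kit and made into libraries with a NEBNext Ultra RNA kit. Per the submitters' processing notes, fastp, STAR 2.5 and HTSeq 0.6.1 were used with build mm10; the sources used here do not give their options, strand setting or annotation. The deposited values are raw counts for each Ensembl identifier, not normalized, with a file for each library. Of 54532 identifiers 54495 matched GENCODE M21, which gave symbols, positions and exon lengths.

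Genes passing filterByExpr over 24 libraries (minimum count 10, minimum total 15; 17286 genes) were scaled by TMM and given two-sided quasi-likelihood F tests with robust dispersions (edgeR 4.0.16, R 4.3.3). P-values were adjusted by Benjamini and Hochberg over all tested genes, with a threshold of 0.05. Genotype was tested on the 12 libraries of each duration, and the interaction and durations on all 24. The SE is the absolute log2 fold change over the square root of F. CPM used TMM-scaled totals, and CPM per kilobase the joined exons of all isoforms. Depth was 11.3 to 34.1 megacounts per library, and floors (3 counts) cover counting error only, since PCR copies are not independent molecules.

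The members and lists were chosen with earlier results of these data known. The 13 lists hold 205 entries, all matched. Named genes are the members, Lrp2, genes overlapping members, up to 4 called genes per list and duration with the smallest adjusted p, a sole gene of a minority direction, and the 3 genes most like each member; of those only some are printed, and a few are not reported here. The AP-1 genes, Syn3, Mmp1b and Cep295nl, Gm42418 and Tagln were named after their values were seen.

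Each result was recomputed with DESeq2 1.42.0, with upper-quartile or RLE scaling, without the filter or with a minimum mean of 1 CPM, with other libraries in the fit, with a replicate block, with totals without Gm42418, and with each library left out in turn. No 2 libraries were duplicates: the lowest chi-square per degree of freedom between replicates was 6.12. Figures were drawn with Python 3.11.15 and matplotlib 3.10.9.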

Additional observations from a re-analysis of the deposited data

Results flagged for a closer look

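Of the 36 sets of 6 libraries (9 genes in 4 groups), 2 held a library whose distance to its nearest neighbour was large against the range of its group by Dixon's test; chance gives about 1 in 20, or 1.8 of 36. Mmp2 in knockout replicate 3 at 2 weeks was at 49.4 CPM, with the next library at 25.0 CPM, a gap of 0.678 of the range. Mmp3 in wild-type replicate 1 at 12 weeks was at 1.17 CPM, with the next library at 0.266 CPM, a gap of 0.773 of the range.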

How the results depend on the processing

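The 8 raised members kept their genotype calls at both durations in every recomputation. For Mmp3, Mmp7, Mmp9 and Timp1, which passed the filter through the knockout libraries, the kept calls are no further support for a difference. Counts of called members stayed within 1.5 times in 133 of 135 recomputations. The exceptions were DESeq2, which called 1 member in the interaction against 0 by edgeR, and 5 against 3 for duration in wild type, adding Mmp7 (1.98, DESeq2 adjusted p = 0.0385) and Timp2 (0.49, DESeq2 adjusted p = 0.0417); the cause was not tested. Timp2 there also passed with only the wild-type libraries in the fit (0.47, edgeR adjusted p = 0.0319) and without wild-type replicate 6 of 12 weeks (0.61, 0.0244), and Mmp2 in knockout without replicate 1 of 12 weeks (0.86, 0.0461). Of the values of single members 43 changed sign, none of them past the threshold before or after; most lay near 0, but some values of Mmp3 moved by over 1.5 times. With no filter on low counts Mmp9 between durations in wild type was -0.022. Leaving out 1 library, the interaction ranged between -0.609 and 1.212 for Mmp3, -0.138 and 0.33 for Mmp9 and -0.194 and 0.184 for Mmp14. Between durations in knockout the range was -0.21 to 0.267 for Mmp7, -0.078 to 0.331 for Mmp9 and -0.145 to 0.237 for Mmp14, and in wild type -0.62 to 1.203 for Mmp3, -0.156 to 0.215 for Mmp9 and -0.032 to 0.146 for Mmp14. The interaction of Mmp7 was -1.18 without wild-type replicate 3 of 12 weeks.

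Replicate numbers did not pair the libraries: same-numbered libraries of the 2 genotypes correlated at -0.1 to 0.17 after removal of group means, and 1 of 12 knockout libraries was best matched by its own number. With the number as a replicate block all 9 members passed at both durations and 0 passed in the interaction; between durations 3 passed in each genotype, and in knockout Mmp7 (0.079) and Mmp14 (0.046) changed sign. Permutation of members outside the filter was not run, since all 9 passed it. The few wild-type counts of Mmp3, Mmp7, Mmp9 and Timp1 limit the precision of their folds.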
